A study of Homo sapiens with 14 samples.

Results

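The loci of 9 regulators and markers of the neuroectoderm, OTX2, PAX6, SOX1, LHX2, SIX3, POU3F1, POU3F2, HESX1 and NES, were examined for SOX2 and for the BAF chromatin remodelling complex in human pluripotent cells that had not yet been directed to a neural fate. The genes were chosen by name, 9 of 19970 protein-coding genes of GENCODE on chromosomes 1 to 22 and X, and each locus is the gene body in hg38 with 60 kb on either side. The 9 windows ran from 123 to 153 kb and together took up 1.22 Mb, 0.0394% of the genome. The median window was 129 kb, against 147 kb over all protein-coding genes.

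The data are chromatin immunoprecipitation sequencing (ChIP-seq) peak lists from the human embryonic stem cell (hESC) line WIBR3 in a naïve culture (5i/L/A medium) and a conventional primed culture, both kept on mouse feeder cells. Per the methods of the study, naïve cultures were made by resetting primed cells, so the lists hold no order in time. Each list holds the stretches of the genome where an antibody recovered more DNA than the input control, as called by the authors. Antibodies were directed at BRG1, BAF155, BRM and SOX2. Of 14 samples, 10 had a peak list and 4 were inputs. In each state the SOX2 libraries came with identical peak coordinates and counted as 1 sample, so every group had 1 sample, no value has a replicate error and no difference between states was tested. The lists held from 1940 peaks (naïve SOX2) to 62338 peaks (naïve BAF155). Read numbers are not in the peak lists. By the quality table of the study, the primed BRG1, BAF155 and SOX2 libraries kept more unique reads than their naïve counterparts, although the primed BRG1 and BAF155 lists are the shorter ones and the primed SOX2 list the longer. A missing peak is a value below the caller's threshold. A site occupied in fewer cells and a site occupied more weakly in all cells cannot be told apart in a peak list, and the lists do not allow the cell states to be checked against marker genes.

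BAF uses the energy of ATP to move or evict nucleosomes. BRG1 (SMARCA4) and BRM (SMARCA2) are its alternative ATPases and BAF155 (SMARCC1) is a scaffold subunit. SOX2 is a transcription factor that is needed for pluripotency and is later kept on in neural progenitors. Naïve hESCs resemble the preimplantation epiblast, and primed hESCs resemble the postimplantation epiblast from which the neuroectoderm arises. OTX2, HESX1, SIX3, LHX2 and PAX6 are homeodomain factors of the forebrain and eye, SOX1 is an early marker of neuroectoderm, POU3F1 and POU3F2 are POU factors of neural progenitors, and NES encodes nestin, an intermediate filament of neural stem cells.

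SOX2 was called in the primed state at 6 of the 9 loci and in the naïve state at 2 of them. Over all protein-coding genes, 42.6% had a primed and 13.2% a naïve SOX2 peak in such a window. All 20 primed SOX2 peaks lay in a primed BAF region, against 88.4% of the whole primed SOX2 list. Of the 20 sites, 12 were also inside a BAF region of naïve cells, against 41.6% of the list. Of the 20, 2 were called for SOX2 in naïve cells, whose list held 1940 peaks against 9290 in the primed list. The same share over the whole primed list was not counted. At a stricter −log10 q of at least 3, 13 of the remaining 19 lay in a primed and 6 in a naïve BAF region. Below are the 200 bases around the summit of the primed SOX2 peak of highest fold at each of the 6 loci, shown because they are the SOX2 sites of highest fold at these genes and all lay in primed BAF regions. They are the plus strand of hg38, and the capitals mark the SOX core hexamers CATTGT and CTTTGT and the POU octamer ATGCAAAT on either strand.
OTX2, chr14:56805909-56806108: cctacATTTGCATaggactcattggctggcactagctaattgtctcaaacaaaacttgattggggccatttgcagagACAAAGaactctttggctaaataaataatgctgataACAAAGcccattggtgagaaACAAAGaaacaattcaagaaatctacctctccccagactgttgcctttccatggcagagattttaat
NES, chr1:156673776-156673975: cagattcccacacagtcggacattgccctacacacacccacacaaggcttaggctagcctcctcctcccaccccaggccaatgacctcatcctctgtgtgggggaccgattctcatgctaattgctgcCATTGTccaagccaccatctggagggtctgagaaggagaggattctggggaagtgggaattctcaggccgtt
HESX1, chr3:57200007-57200206: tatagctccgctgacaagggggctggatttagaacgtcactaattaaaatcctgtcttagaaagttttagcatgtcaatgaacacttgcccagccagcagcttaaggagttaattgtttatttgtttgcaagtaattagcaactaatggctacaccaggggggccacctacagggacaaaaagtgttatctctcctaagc
SOX1, chr13:112103967-112104166: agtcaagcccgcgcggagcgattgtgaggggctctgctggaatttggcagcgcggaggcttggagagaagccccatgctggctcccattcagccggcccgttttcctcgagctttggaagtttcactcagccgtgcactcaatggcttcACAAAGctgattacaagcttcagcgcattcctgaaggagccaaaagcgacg
PAX6, chr11:31824014-31824213: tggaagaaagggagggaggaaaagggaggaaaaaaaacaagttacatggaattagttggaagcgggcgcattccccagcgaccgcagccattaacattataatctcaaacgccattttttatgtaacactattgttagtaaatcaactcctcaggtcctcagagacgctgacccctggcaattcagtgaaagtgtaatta
LHX2, chr9:124001226-124001425: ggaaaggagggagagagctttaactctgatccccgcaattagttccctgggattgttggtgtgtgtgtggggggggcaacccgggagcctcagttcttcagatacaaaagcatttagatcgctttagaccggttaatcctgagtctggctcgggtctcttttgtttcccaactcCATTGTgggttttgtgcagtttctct

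The OTX2 site carried 3 SOX cores that were centred at most 36 bases from the summit and 1 octamer near its edge. The NES, SOX1 and LHX2 sites each carried 1 SOX core. The PAX6 and HESX1 sites carried neither an exact SOX core nor an octamer in these 200 bases. The OTX2 and NES sites are also those called for SOX2 in naïve cells.

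**Figure D1:**
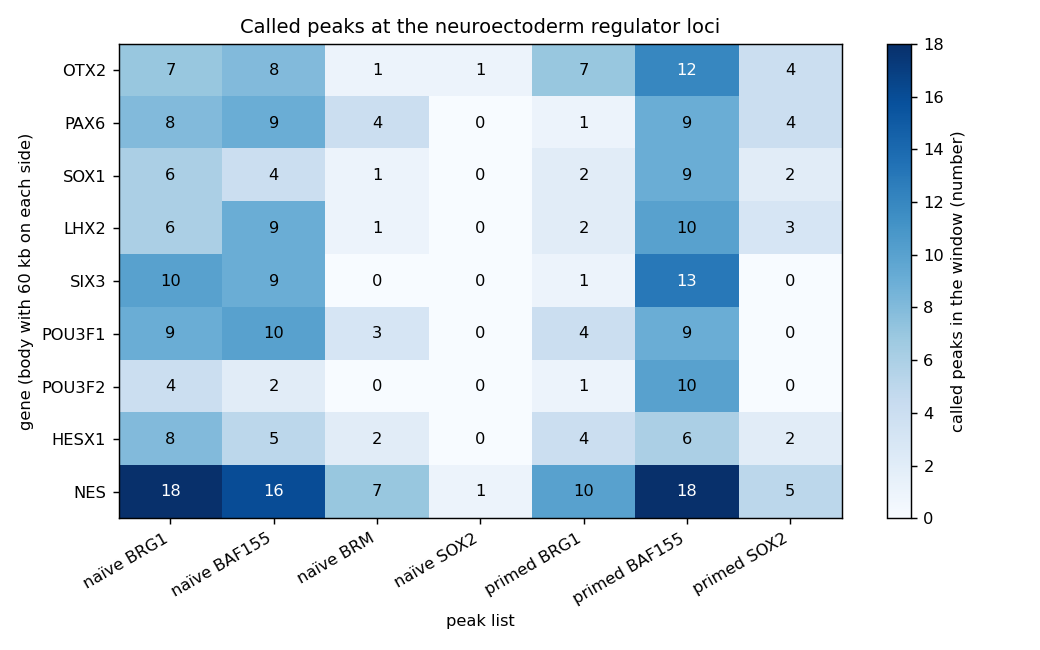
Number of called peaks (shade and digit) in the window of each gene (rows) in each of 7 peak lists (columns). The naïve SOX2 column holds 1 peak at OTX2 and 1 at NES, whereas the primed SOX2 column holds 2 to 5 peaks at 6 loci and 0 at SIX3, POU3F1 and POU3F2.

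Over all windows, primed SOX2 gave 20 of its 9290 peaks and naïve SOX2 gave 2 of its 1940. This is 16.4 primed and 1.64 naïve peaks per Mb of window, against 3.01 and 0.628 per Mb of the genome, which includes sequence far from genes. Read against windows drawn in the same way, 42.6% of all protein-coding genes had a primed SOX2 peak and 13.2% a naïve one, compared with 6 and 2 of the 9 genes here. By number of primed SOX2 peaks in a BAF region the genes differed among themselves. NES had 5, a count reached by 0.941% of all protein-coding genes. OTX2 and PAX6 had 4 each (2.19% of genes reached this), LHX2 had 3 (5.17%), and SOX1 and HESX1 had 2 each (13.9%). When the SOX2 lists and the BAF lists were cut to equal lengths in both states, 5 primed SOX2 peaks at 4 loci remained beside 2 naïve peaks at 2 loci, so the size of the primed excess moves with list length.

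The primed SOX2 peaks lay in a primed BAF region at 6 of 9 genes, where 38.9% of all protein-coding genes had such a peak. Every one of the 20 peaks fell on a BAF155 peak and 10 fell on a BRG1 peak. Over the whole primed SOX2 list, 88.4% of peaks lay on BAF155 and 41.9% on BRG1. A primed SOX2 peak inside both a primed and a naïve BAF region was found at 5 of 9 genes, against 24.5% of all genes. Naïve BAF regions held 3 of 4 primed SOX2 peaks at OTX2, 4 of 4 at PAX6, 1 of 3 at LHX2, 2 of 2 at HESX1, 2 of 5 at NES and 0 of 2 at SOX1. In the whole list 41.6% of primed SOX2 peaks lay in a naïve BAF region. A naïve SOX2 peak in a naïve BAF region was found at 2 of 9 genes, OTX2 and NES, against 12.6% of all genes. When both subunits were required, 12 of the 20 primed SOX2 peaks lay in a primed BAF region, still at 6 genes. Over all protein-coding genes, 4438 of 19970 had such a peak. Under a rule of 50% of both regions, 1 of the 20 lay in a primed BAF region, at 1 of 9 genes, against 3376 of 19970 protein-coding genes. With −log10 q of at least 3 in all lists, 13 of the remaining 19 lay in a primed and 6 in a naïve BAF region. At that threshold 6 of 9 genes had SOX2 on primed BAF, against 5954 of 19970 protein-coding genes. Shares of the whole SOX2 list were not counted under these alternatives.

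The 12 primed SOX2 sites in naïve BAF regions had folds over input from 4.57 to 24.2 with a median of 7.99, and the 8 others had folds from 4.65 to 12.3 with a median of 6.09. The range of the latter lies inside that of the former. BRG1 was called in primed cells at 8 of the former 12 and at 2 of the latter 8. Of the 20 sites, 6 were within 1 kb of an annotated transcript start, against 16.1% of the whole list. Another 12 were in introns and 2 were intergenic, for which no list share was counted. The nearest protein-coding start was that of the named gene for 15 of the 20, the exceptions being 4 at NES and 1 at HESX1. The median fold of the 20 was 6.56 against 6.73 for the whole list, with 4 of them among its highest 10% and 9 among its highest 50%.

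**Figure D2:**
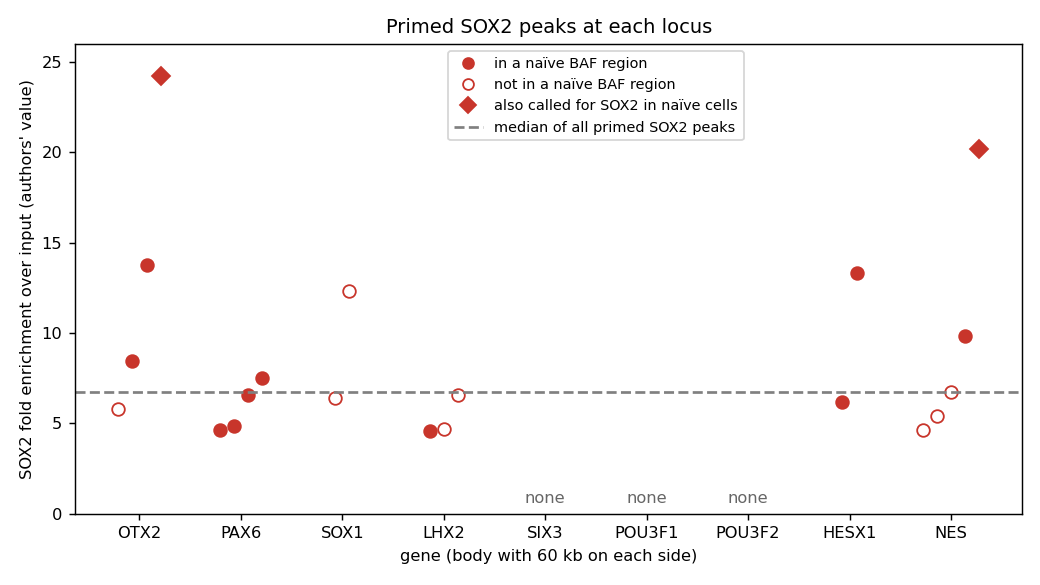
Fold enrichment over input (y axis, authors' value) of each primed SOX2 peak, by gene (x axis), with filled symbols for peaks inside a naïve BAF region and diamonds for sites also called for SOX2 in naïve cells. The diamonds at OTX2 (24.2) and NES (20.2) are the highest points, SOX1 has only open symbols, and the dashed line is the list median of 6.73.

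At OTX2 (chr14:56799905-56816693, minus strand), a head regulator that is expressed from the epiblast onward, the strongest site of all lay in intron 2 of the main transcript, 4.46 kb from its start and 0.35 kb from the start of another OTX2 transcript. Positions are given relative to the start of the main transcript (MANE Select), with negative values upstream. Primed SOX2 was called at chr14:56805736-56806298 with a fold of 24.2, rank 56 of 9290. Naïve SOX2 was called within it, at chr14:56805866-56806144, with a fold of 8.20, rank 703 of 1940. Folds are not compared between lists, since each list has its own libraries, and ranks are within a list. BRG1 and BAF155 were called there in both states. The naïve BAF region at the site was 1174 bp wide, whereas the primed region ran for 7729 bp across the start of the main transcript. Within that span naïve cells also had a BRG1 peak in between and a BAF region of 988 bp within 1 kb of that start.

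A pair of far upstream sites of OTX2 lay in introns of the antisense transcript OTX2-AS1. The peak at -36.8 kb had a SOX2 fold of 13.8 (rank 679), and the peak at -45.6 kb had a fold of 8.44. Both lay on BRG1 and BAF155 in naïve as in primed cells without a naïve SOX2 peak. The -36.8 kb site was also where naïve BRG1 (fold 3.94), naïve BAF155 (3.76) and primed BAF155 (5.68) reached their highest fold in the OTX2 window, whereas primed BRG1 did so at the intron 2 site (5.03, rank 829 of 15611). The fourth SOX2 peak, at -2.89 kb, had a fold of 5.79 and lay in a BAF region of primed cells alone.

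At PAX6 (chr11:31784779-31817961, minus strand), a master regulator of eye and forebrain, all 4 primed SOX2 peaks were upstream, in introns of the non-coding gene PAUPAR. All 4 were also in introns of a protein-coding GENCODE record without a gene symbol. They lay at -8.73, -9.23, -12.9 and -59.9 kb from the main start, and their folds were 4.64, 4.87, 7.53 and 6.56. The pair nearest to the gene shared a BAF region. None ranked above 3661 of 9290, so PAX6 had many SOX2 sites but no strong one. All 4 lay in BAF regions of both states. BRG1 peaks at this locus numbered 8 in naïve and 1 in primed cells, against 9 BAF155 peaks in each state, and the lone primed BRG1 peak had a fold of 2.80, near the end of its list at rank 15537 of 15611.

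At SOX1 (chr13:112067149-112071706, plus strand), which is switched on as cells become neuroectoderm, both primed SOX2 peaks were downstream, inside the host transcript SOX1-OT. The stronger, at 36.9 kb, had a fold of 12.3 (rank 956) and lay in a BAF region 3140 bp wide that held the highest primed BRG1 fold (4.37) and the highest primed BAF155 fold (4.63) of the locus. The other, at 12.2 kb, had a fold of 6.39. Neither lay in a BAF region of naïve cells, which makes SOX1 the only SOX2-marked gene of the 6 where no SOX2 site had a naïve BAF call. Naïve BAF was present nearer to the gene, with its highest BRG1 fold (3.95) at -13.2 kb.

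At LHX2 (chr9:124001670-124033301, plus strand), a factor of the eye field and cortex, the primed SOX2 peaks had folds of 6.56, 4.71 and 4.57. The first lay at -0.338 kb from the start of the gene record and -10.4 kb from that of the main one, the second at -6.25 kb, and the third at 7.16 kb in intron 3. Only the third lay in a naïve BAF region. The first lay in a primed BAF155 region 2445 bp wide that touched naïve BAF elsewhere along its length, but not at the SOX2 peak.

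At HESX1 (chr3:57197838-57227606, minus strand), a transcriptional repressor required for the development of the forebrain and pituitary, SOX2 sat on the promoter of the main transcript. The primed SOX2 peak chr3:57199908-57200290 was centred at -0.121 kb and had a fold of 13.3 (rank 758). Primed BAF155 reached its highest fold of the locus there, 5.64 (rank 1632 of 58352), and primed BRG1 was called with a fold of 3.23. In naïve cells the same promoter held a BRG1 peak of fold 2.43, the lowest of the 8 naïve BRG1 peaks of the window, and no BAF155 peak. The second SOX2 peak of the window, with a fold of 6.19, lay in an intron of the neighbouring gene IL17RD.

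At NES (chr1:156668763-156677407, minus strand), the strongest SOX2 site lay in intron 2, 3.47 kb from the start. Primed SOX2 had a fold of 20.2 (rank 147) and naïve SOX2 a fold of 5.93 (rank 1483 of 1940) at this site. It was the only SOX2 site of the 9 loci called in all 7 lists. The NES window also holds BCAN, CRABP2 and other genes, and 4 of its 5 SOX2 peaks were nearer to the start of another gene. At -15.8 kb a primed SOX2 peak of fold 9.86 lay in the region with the highest naïve BRG1 fold of any window, described further on. The remaining 3 had folds from 4.65 to 6.73 and no naïve BAF call.

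SIX3, POU3F1 and POU3F2 had no SOX2 peak in either state within 60 kb. The SOX2 peak nearest to SIX3 (chr2:44941702-44946071, plus strand), a repressor needed for the forebrain and eye, was 139 kb away at chr2:44802845-44803304, with a primed fold of 22.8. A naïve SOX2 peak of fold 7.49 lay inside it, and BAF was called there in both states. Its nearest protein-coding start was that of CAMKMT, not SIX3. For POU3F1 (chr1:38043829-38046793, minus strand) the nearest primed SOX2 peak was 239 kb and the nearest naïve one 324 kb away. For POU3F2 (chr6:98834574-98839458, plus strand) the distances were 197 kb and 795 kb.

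**Figure D3:**
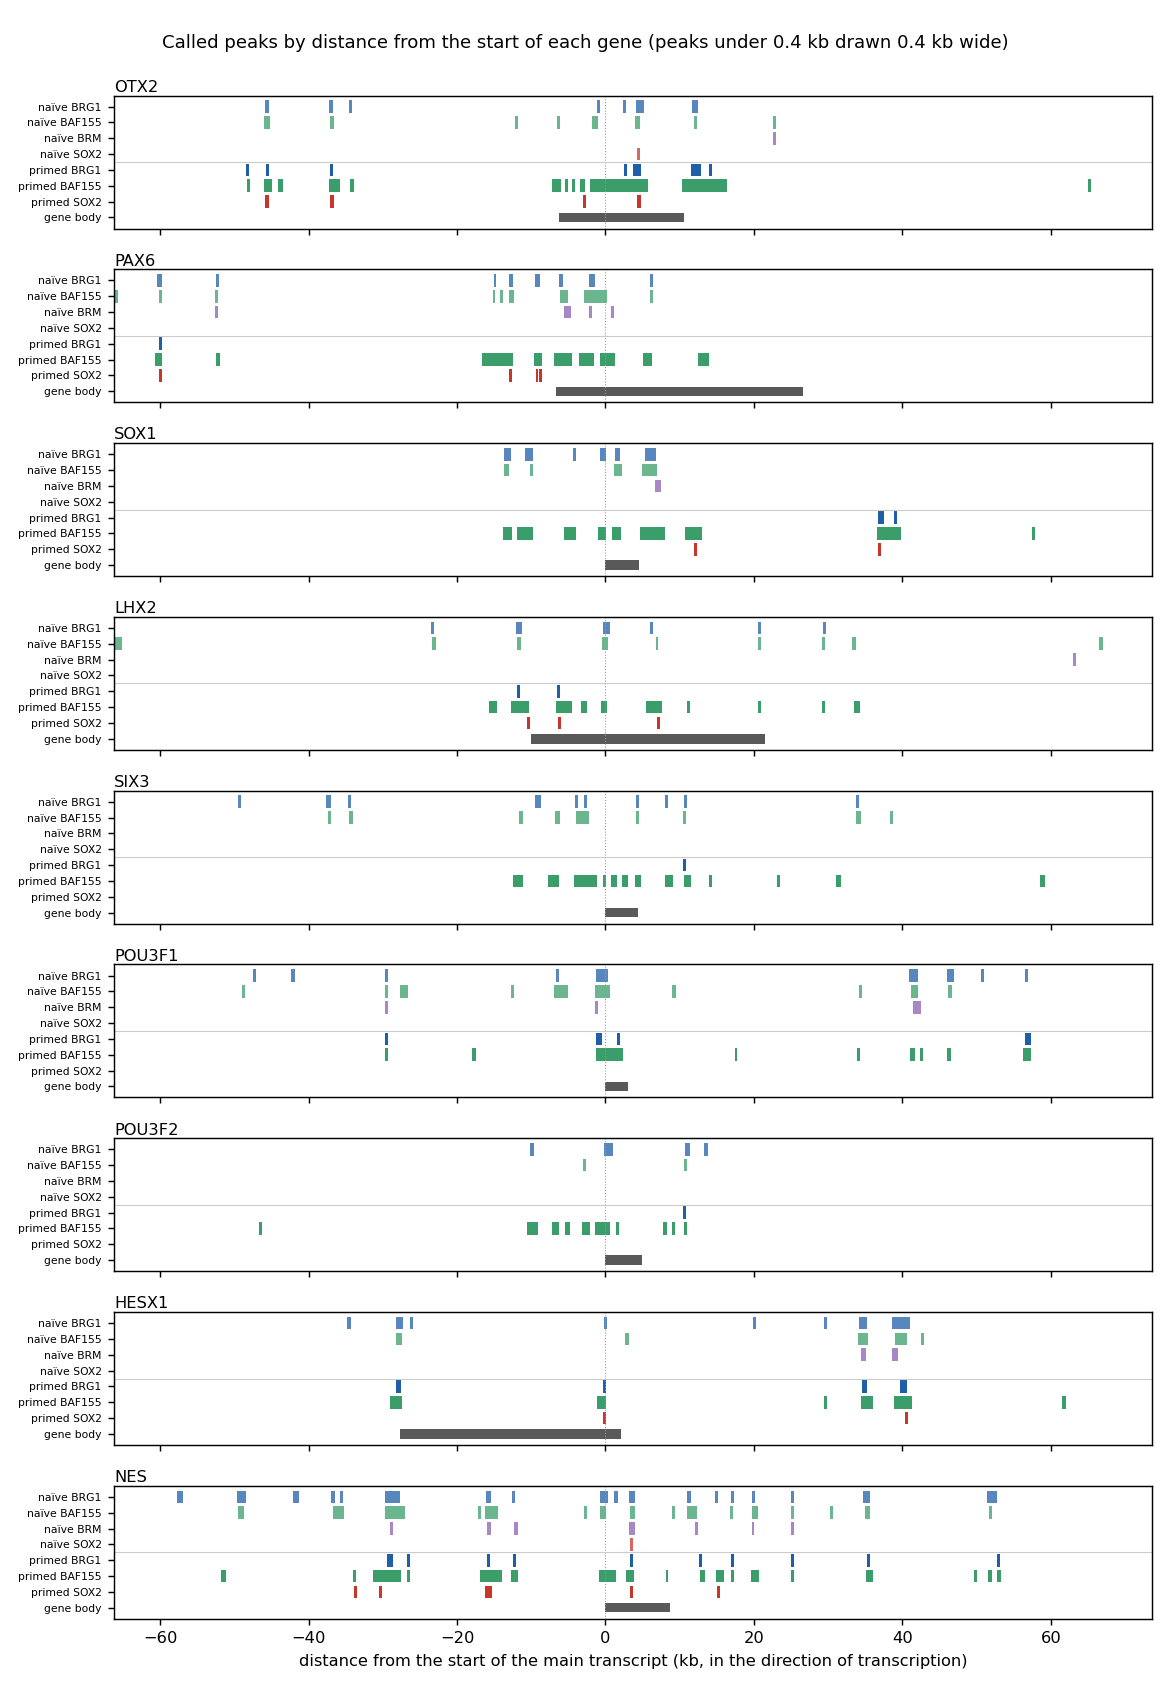
Called peaks of 7 lists (rows within each panel) at the 9 loci, by distance from the start of the main transcript in kb (x axis), with the gene body in grey. Primed SOX2 (red) lies over primed BAF155 (green) at all 20 sites, and SIX3, POU3F1 and POU3F2 have BAF peaks around the gene without SOX2.

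BAF was present at all 9 genes, with or without SOX2. A primed BAF region lay within 1 kb of the start of the gene record at 9 of 9 genes, against 66.1% of all protein-coding genes, and a naïve one at 7 of 9, against 65.8%. The exceptions in naïve cells were LHX2 and SIX3. At the start of the main transcript the counts were 9 and 8, and SIX3 was the exception. The subunits differed. BAF155 was called at the start of 9 genes in primed cells (66.0% of all genes) and of 5 in naïve cells (59.5%). BRG1 was called at the start of 2 genes in primed cells, POU3F1 and HESX1 (27.6% of all genes), and of 6 in naïve cells (58.9%). The HESX1 record begins 27.6 kb upstream of its main transcript, in a BAF region whose nearest protein-coding start was that of APPL1. At the starts of the main transcripts, BAF155 was called at 9 genes in primed and 4 in naïve cells. BRG1 was called there at 2 and 7 genes. The counts rest on weak calls, since with −log10 q of at least 3 a BAF region remained at the start of 4 genes in primed and 2 in naïve cells. When both subunits were required the counts were 3 and 4. Shares over all protein-coding genes were not counted for main transcript starts or for these alternatives, so these counts have no background beside them.

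The naïve and primed regions at the starts of the main transcripts differed in width, not always in the same direction. The naïve region was the wider at PAX6 (3149 bp, against 2145 bp primed) and at LHX2 (1003 bp, against 812 bp). The primed one was the wider at the other starts with a region in both states. At SOX1 the naïve start held a BRG1 peak of 732 bp. Primed cells had a pair of separate BAF155 regions between chr13:112066167 and 112069244, the wider of 1279 bp. Naïve BRG1 and BAF155 were also called over this wider one, in a common region, but more than 1 kb from the start. At POU3F2 a naïve BRG1 peak of 1183 bp faced a primed BAF155 region of 1952 bp. At POU3F1 the naïve region was 1900 bp wide and the primed one 3712 bp, and at NES they were 1059 and 2315 bp wide. SIX3 had no naïve region at its start and a pair of primed BAF155 regions between chr2:44941447 and 44943184.

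Over whole windows the naïve lists gave 76 BRG1 and 72 BAF155 peaks, and the primed lists 32 BRG1 and 96 BAF155 peaks. Every locus had at least 1 peak of each of these 4 lists. Over all protein-coding genes the shares with such a peak were 93.9% for naïve BRG1, 93.3% for naïve BAF155, 72.2% for primed BRG1 and 94.0% for primed BAF155, so these counts are near the background for 3 of the 4 lists. Merged, they made 132 BAF regions, of which 36 were naïve-only, 40 primed-only and 56 common to both states. This is 27.3%, 30.3% and 42.4% of the regions in the windows, against 45.4%, 28.5% and 26.1% of the regions in the genome. The genome includes regions far from genes. In like windows of all protein-coding genes there were 111139 naïve-only, 46189 primed-only and 73966 common regions, counted once per window. There the primed-only class was the smallest, whereas in the 9 windows it was the naïve-only class. With both subunits required there were 28 naïve-only, 8 primed-only and 19 common regions, which turns the order of the state-specific classes, and the common share was 34.5% against 20.9% in the genome. With −log10 q of at least 3 there were 9, 31 and 14, and the common share was 25.9% against 20.3%. Common regions were found at 9 of 9 genes (88.9% of all genes), primed-only regions at 9 of 9 (78.0%) and naïve-only regions at 8 of 9 (89.2%), SOX1 being the exception. The mix varied between loci. PAX6 had 1 naïve-only, 1 primed-only and 7 common regions, whereas POU3F1 had 9, 4 and 5, and OTX2 had 2, 7 and 6. Primed-only regions outnumbered naïve-only ones at 5 of 9 genes (OTX2, SOX1, LHX2, SIX3 and POU3F2), against 21.3% of all genes.

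The length of chromatin in BAF regions was greater in primed than in naïve cells at 8 of 9 genes, against 31.9% of all protein-coding genes. At OTX2 it was 5.78 kb in naïve and 20.8 kb in primed cells. It was 8.35 and 16.0 kb at PAX6, 6.32 and 16.2 kb at SOX1, and 5.90 and 11.1 kb at LHX2. SIX3 had 7.49 and 12.3 kb and POU3F2 3.33 and 8.04 kb, although no SOX2 peak was called at either. HESX1 (7.15 and 7.82 kb) and NES (18.4 and 18.7 kb) hardly differed, and POU3F1 went the other way (9.96 and 7.86 kb). The median over the 9 genes was 7.15 kb naïve and 12.3 kb primed, whereas over all protein-coding genes it was 5.47 and 4.26 kb. The number of regions was nearly equal, 98 naïve and 97 primed, and their median width was 583 and 872 bp, against 510 and 509 bp in the genome. Primed BAF155 peaks in the windows had a median width of 882 bp, compared with 507 bp over the list, and a median fold of 3.24, compared with 3.28. With both subunits required, the primed length was greater at 3 genes, HESX1, LHX2 and OTX2, against 14.4% of all genes. With lists of equal length it was greater at 9 genes, against 45.8% of all genes.

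**Figure D4:**
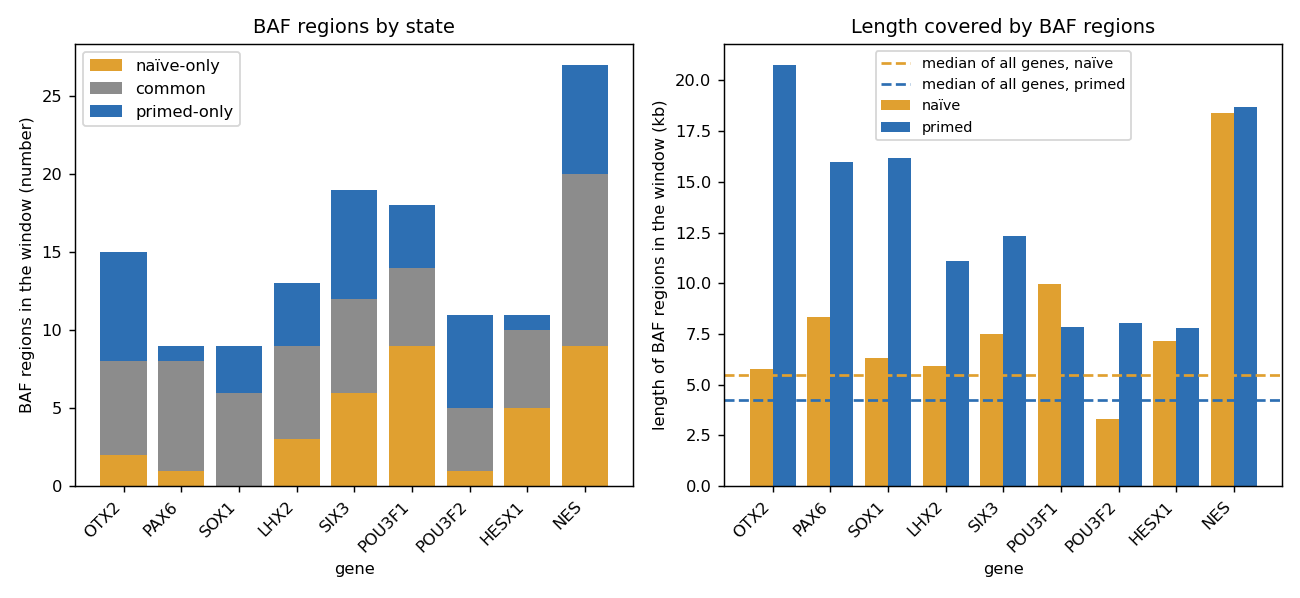
Left, number of naïve-only, common and primed-only BAF regions in the window of each gene (stacked bars); right, length of those windows in BAF regions in kb in naïve and primed cells, with dashed lines for the medians over all protein-coding genes (5.47 and 4.26 kb). The primed bar is the taller at 8 genes and the shorter at POU3F1.

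Primed SOX2 was called on 14 of the 56 common regions, on 5 of the 40 primed-only regions and on 0 of the 36 naïve-only regions. In the genome 14.0% of common, 13.5% of primed-only and 0.465% of naïve-only regions had a primed SOX2 peak. The common regions of the windows had a median width of 1273 bp, against 1113 bp in the genome, and 28 of 56 had their midpoint within 1 kb of a transcript start, against 52.2%.

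BRM gave 19 peaks in the windows in the naïve list and 0 of 167 in the primed list. Naïve BRM was found at 7 of 9 genes, against 70.3% of all protein-coding genes. NES had 7 peaks, PAX6 4, POU3F1 3, HESX1 2, and OTX2, SOX1 and LHX2 1 each, while SIX3 and POU3F2 had none. BRM lay on 15 of the 56 common regions, 2 of the 36 naïve-only regions and 1 of the 40 primed-only regions. In the genome, naïve BRM lay on 32.1% of the common class, 14.3% of the naïve-only class and 0.405% of the primed-only class. Naïve BRM coincided with 2 of the 20 primed SOX2 sites, against 11.97% of the whole list, both at NES, at the intronic site and at -15.8 kb.

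The highest naïve BRG1 fold and the highest primed BRG1 and BAF155 folds of all windows were at an upstream site of NES and an upstream site of POU3F1. The next sequences are the 200 bases at the midpoint of the highest naïve BRG1 peak of any window and of the highest BAF155 peak of the POU3F1 window, shown because BAF was strong there in both states. They were chosen after their values were seen. They contained no exact SOX core and no octamer, so no letters are in capitals, although the 200 bases at the SOX2 summit of the NES upstream site had 2 SOX cores. Both are the plus strand of hg38.
NES upstream site, chr1:156693014-156693213: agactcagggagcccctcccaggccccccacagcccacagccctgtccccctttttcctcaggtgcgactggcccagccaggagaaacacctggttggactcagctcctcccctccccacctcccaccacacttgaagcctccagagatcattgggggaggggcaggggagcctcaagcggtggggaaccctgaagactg
POU3F1 upstream site, chr1:38076137-38076336: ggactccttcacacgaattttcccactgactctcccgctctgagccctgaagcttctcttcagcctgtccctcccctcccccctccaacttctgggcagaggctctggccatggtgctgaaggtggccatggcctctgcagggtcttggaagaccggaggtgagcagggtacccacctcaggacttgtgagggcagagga

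The NES upstream site lay at -15.7 kb in a non-coding gene on the side of CRABP2, which encodes a retinoic acid binding protein. Naïve BRG1 had a fold of 9.03 there, rank 7 of 57884, naïve BRM a fold of 7.90, rank 38 of 17413, and naïve BAF155 a fold of 5.93, rank 296 of 62338. Primed BRG1 had a fold of 5.30, rank 632 of 15611. The POU3F1 upstream site lay at -29.4 kb in an intron and was the highest peak of the window in all 5 BAF lists. The primed fold was 8.07 for BAF155 (rank 206 of 58352) and 7.04 for BRG1 (rank 145). The naïve fold was 5.12 for BAF155 (rank 694), 4.55 for BRG1 (rank 1213) and 4.74 for BRM (rank 887). The site was narrow, 360 bp for primed BAF155, and had no SOX2 peak in either state. By contrast, the highest BAF folds at PAX6 and POU3F2 were ordinary, at 3.93 (rank 12034) and 3.76 (rank 15126) for primed BAF155.

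The sequence of the SOX2 sites was not set apart from the rest of the list by the motifs searched. An exact SOX core (CATTGT or CTTTGT, either strand, in the 200 bases at the summit) was present at 11 of 20 primed sites, against 60.6% of the list. The octamer was present at 1 of 20 (9.19% of the list), the OTX-type core TAATCC at 1 of 20 (11.0%), and the OCT4-SOX2 composite element with up to 2 mismatches at 0 of 20 (9.22%). Matches of the composite element can overlap those of the SOX core. The median GC content of the 200 bases was 55.5% at the 20 sites and 46% over the list. Both naïve sites carried a SOX core, against 59.1% of the naïve list.

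Other regulators of development were counted in the same windows. Among 20 other neural regulators, which include SOX11, ZIC1, ZIC2, OTX1 and POU3F3, a primed SOX2 peak in a primed BAF region was found at 16, with 39 peaks in all and a median of 1.5 per gene. The median was 2 at the 9 genes and 0 over all protein-coding genes. Neighbouring ZIC2 and ZIC5 have overlapping windows, with 2 such peaks each, so their shared part counts for both genes in this list. Among 9 endoderm regulators it was found at 5 with 14 peaks, and among 9 mesoderm regulators at 5 with 9 peaks. Both lists are close to the count of 6 at the 9 neuroectoderm genes, and the lists were not tested against each other. A primed SOX2 site also inside a naïve BAF region was found at 10 of the 20 neural, 4 of the 9 endoderm and 2 of the 9 mesoderm regulators. The length of BAF regions was greater in primed cells at 19 of the 20 neural regulators, at 5 of the 9 endoderm regulators and at 3 of the 9 mesoderm regulators.

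**Figure D5:**
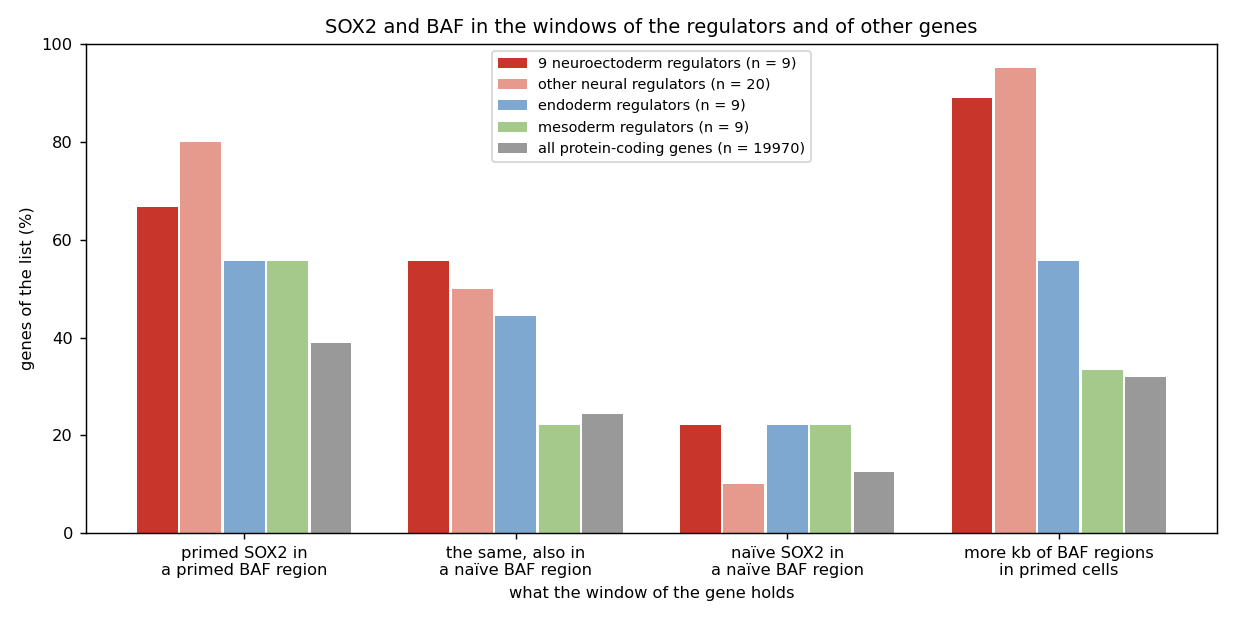
Percentage of the genes of each list (bars) whose window held the feature named on the x axis. The bars for SOX2 in a BAF region differ less between the neural, endoderm and mesoderm lists than those for a greater length of BAF regions in primed cells, which stand at 8 of 9, 19 of 20, 5 of 9 and 3 of 9 genes.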

How the data were processed

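ChIP-seq was performed by the authors on WIBR3 cells in naïve and primed culture. Per the methods of the study, reads were trimmed, mapped to hg38 (per the submitters' processing notes, Bowtie2 2.3.4) and freed of duplicates, and MACS2 called peaks over the input, narrow for SOX2 and broad for BRG1, BAF155 and BRM. The SOX2 libraries were sequenced as paired ends and the BAF libraries as single ends, in different facilities. The deposited lists give positions and, except for primed BRM and the second SOX2 list of each state, the authors' fold enrichment over input as a ratio, with −log10 p and −log10 q. The lowest −log10 q was 1.00 to 1.01 in the BAF lists and 1.31 to 1.35 in the SOX2 lists. Whether libraries were pooled for peak calling is not given in the sources used here.

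The 9 genes and the other gene lists were chosen with earlier results of these data known. All 9 genes are named, and every SOX2 peak of their windows is placed. A peak belongs to a window if its midpoint lies in the GENCODE 44 gene body with 60 kb on either side. BRG1 and BAF155 peaks of a state were merged into BAF regions with bedtools 2.31.1. Overlap required 25% of either region, after the study. Regions with no partner in the other state are naïve-only or primed-only, and the rest were merged as common. The start of a gene is 1 kb on either side of the start of its GENCODE record. Motifs were searched on both strands of the 200 bases at the SOX2 summit. Scripts (Python 3.11.15, pandas 2.3.3, pysam 0.24.0) were tested on simulated regions. No test was run, since each group has 1 sample. Alternatives were the overlap rule, a stricter q, equal list lengths, 20 kb flanks, both subunits required, each SOX2 list alone and any transcript start. The length of BAF regions was compared after the counts had been seen.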

Additional observations from a re-analysis of the deposited data

How the results depend on the processing

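No paired analysis was possible because every group has 1 distinct peak list and no test was run. Over 9 alternatives, 58 values stayed within 1.5 times the reported count and 35 did not. Leaving out each SOX2 list in turn gave the same values, as the lists have identical coordinates, and so did counting any overlap or any transcript start within 1.5 times. Requiring 50% of both regions left 1 primed SOX2 peak in a primed and 4 in a naïve BAF region, 0 naïve SOX2 peaks in a naïve BAF region, 1 gene with SOX2 on primed BAF and 0 on naïve BAF, 68 naïve-only, 67 primed-only and 30 common regions, and 3376 protein-coding genes with SOX2 on primed BAF. In the windows the median width was 332.5 bp for primed SOX2 peaks and 872 bp for primed BAF regions. Whether width accounts for the drop was not tested. With −log10 q of at least 3 there were 13 primed SOX2 peaks in a primed and 6 in a naïve BAF region, 5 naïve BRM peaks, 9 naïve-only and 14 common regions, and 2 genes with a naïve and 4 with a primed BAF region at the start. Equal list lengths left 5 primed SOX2 peaks, 5 in a primed and 3 in a naïve BAF region, 2256 protein-coding genes with SOX2 on primed BAF, and 4 genes with a naïve BAF region at the start. Flanks of 20 kb held 13 primed SOX2 peaks, all 13 in a primed BAF region, 12 BRM peaks, 16 naïve-only and 23 primed-only regions, and 4754 protein-coding genes with SOX2 on primed BAF. With both subunits required, 12 primed SOX2 peaks lay in a primed BAF region, 8 primed-only and 19 common regions remained, 4438 protein-coding genes had SOX2 on primed BAF, 4 genes had a naïve and 3 a primed BAF region at the start, and the primed length was greater at 3 of the 9 genes and at 2866 protein-coding genes. The length comparison and its alternatives were chosen after seeing the data. The cause of these changes was not tested. Read numbers were not used to scale the lists, and the BAF lists reach to weaker q values than the SOX2 lists, so counts of BAF regions depend more on the threshold.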
